A study of Mus musculus with 2 samples.

Results

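The 8 genes of the red cell membrane and its skeleton studied here, on 2 arrays of sorted mouse fetal liver macrophages, were Slc4a1, Epb42, Ank1, Add1, Add2, Rhd, Rhag and Kel. They were picked by name, and every probe set whose annotation names one of them and no other gene was used, which gave 20 of the 45101 probe sets and 8 of the 18193 genes named on the array. One array held RNA from c-Maf KO embryos (c-Maf-/-) and the other RNA from wild type embryos (c-Maf+/+), all C57BL/6J at E15.5, a mid-gestation stage of embryonic development. Maf encodes c-Maf, a transcription factor that binds DNA through a basic leucine zipper. Cells carrying both Mac-1 and F4/80 were sorted by flow cytometry, and neither group had any treatment. The deletion was carried by whole embryos, so it was not limited to macrophages, and how many embryos each RNA came from is not stated. The study looked for genes with reduced expression in c-Maf KO macrophages. With 1 array per genotype there was no replicate, no test and no error between animals, and every value below describes these 2 arrays.

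The red cell membrane is a lipid bilayer tied to a mesh of spectrin and short actin filaments. The tie runs through ankyrin to the anion exchanger that Slc4a1 encodes, and adducin caps the actin filaments and helps spectrin to bind them. Rh proteins and the Kell glycoprotein sit in the same membrane and carry blood group antigens. In the fetal liver these proteins are made by erythroblasts, which mature while attached to a central macrophage that also engulfs the nuclei they expel. The genes are therefore best known as red cell products, and Add1 is also widely used outside red cells. In RNA from a sorted population, fewer cells of a type and less RNA per cell cannot be told apart.

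The c-Maf KO array was the dimmer of the pair, with a median deposited signal of 2.98 over all probe sets, against 4.73 on the wild type array. Ratios are therefore given as c-Maf KO over wild type on the log2 scale after quantile normalization. It gives both arrays the same distribution of signals, and the deposited signals are given beside the ratios. However, the 18 hybridisation controls were not dimmer in c-Maf KO. Their deposited log2 ratio was 0.24, against -0.93 for the median gene. The median ratio of the genes studied here was 0.43 after normalization and -0.89 when scaled to these controls. Its sign thus rested on the scaling, and which scaling is right was not tested. Signals under the floor of 3.75, the 50th percentile of the normalized values, were raised to it, so a probe set under the floor on 1 array has only a bound, and 2-fold is 1 log2 unit. Ratios of probe sets of the same gene spread around their gene mean with an SD of 0.69 log2 units. It was taken over 3861 probe sets of 1592 genes. Each was past the floor on both arrays, with a signal of 15.0 or more on the brighter one. This SD within genes is the only yardstick here and does not cover animals, sorts or arrays. Maf itself, by its brightest probe set, had a deposited signal of 0.219 in c-Maf KO, against 47.6 in wild type, at least 8.51-fold lower after normalization, although whether its probes lie in the deleted part is not known here. All 12 macrophage markers examined were above the floor on both arrays, but Itgam, encoding the Mac-1 alpha chain, was close to it, with normalized signals of 5.04 in c-Maf KO and 4.52 in wild type.

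Of the 8 genes by their brightest probe sets, Rhd stood lowest and Rhag highest in c-Maf KO relative to wild type, which set apart the partners of a single protein complex. The promoter stretches of both, and of Kel, which lay next to Rhag, are shown because these 3 genes had the ratios farthest from 0 after normalization, by their brightest probe sets. Each is the 250 bases before the transcript start in RefSeq (GRCm38.p6), 5′ to 3′ on the gene's strand. Capitals mark GATAA or its reverse complement TTATC, the core of sites for GATA factors, and CACCC or its reverse complement GGGTG, the core of sites for Krüppel-like factors such as the erythroid Klf1. No marked site overlaps another. Rhd lies at chr4:134864286-134864535 on the plus strand, Rhag at chr17:40810899-40811148 on the plus strand and Kel at chr6:41704326-41704575 on the minus strand. The RefSeq gene begins inside the stretch for Rhag (at 40811099) and Kel (at 41704334), where other transcripts start.
Rhd: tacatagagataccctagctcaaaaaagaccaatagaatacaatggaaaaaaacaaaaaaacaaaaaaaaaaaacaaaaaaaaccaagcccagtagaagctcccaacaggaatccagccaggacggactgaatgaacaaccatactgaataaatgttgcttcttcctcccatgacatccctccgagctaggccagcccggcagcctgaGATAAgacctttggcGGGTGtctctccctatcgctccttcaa
Rhag: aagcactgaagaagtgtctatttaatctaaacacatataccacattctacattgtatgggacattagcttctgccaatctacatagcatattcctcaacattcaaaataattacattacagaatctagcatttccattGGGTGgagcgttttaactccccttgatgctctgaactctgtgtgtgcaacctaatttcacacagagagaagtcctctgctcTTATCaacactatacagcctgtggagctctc
Kel: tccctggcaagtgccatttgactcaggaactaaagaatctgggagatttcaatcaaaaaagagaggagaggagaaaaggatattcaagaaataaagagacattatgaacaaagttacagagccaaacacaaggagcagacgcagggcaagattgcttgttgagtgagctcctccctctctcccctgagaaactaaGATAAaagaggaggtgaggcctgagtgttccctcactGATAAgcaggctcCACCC
The Rhd stretch held a GATAA starting 42 bases before the transcript start and a GGGTG starting 27 bases before it. The Rhag stretch held a TTATC at 31 bases and a GGGTG at 112 bases, and the Kel stretch held GATAA at 55 and at 18 bases and CACCC at 5 bases before the start. Thus both motifs were in all 3 stretches, and their presence did not separate Rhd from Rhag and Kel. Of the 6 members with a promoter in the table, 4 held GATAA on either strand, against 22.6% of 32851 promoter stretches of the same length, and 4 held CACCC on either strand, against 52% of them. TGCTGA or its reverse complement TCAGCA, the outer part of the Maf recognition element, was in 0 of the 6, against 16.1% of all stretches. A match is a string of letters in this window and not a shown binding site, and a stretch without a match says nothing about binding. Ank1 and Slc4a1 had no entry in the promoter table.

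Among the 8 genes, each represented by its brightest probe set, 1 was 2-fold or more higher in c-Maf KO (Rhag), 1 was 2-fold or more lower (Rhd) and 6 within 2-fold. Over all 13290 genes measured, 8.34% were higher by 2-fold or more and 9.05% lower by as much, so 1 of 8 in each direction is near the background. The ratio was above 0 for 6 genes and below 0 for Rhd and Slc4a1. The median ratio of the 8 genes was 0.43, against 0.01 over all genes measured. As deposited the median of the 8 was -0.65, against -0.79 over the 13479 genes measured on that scale. On the deposited scale 0 of the 8 were at least 2-fold higher, against 1.19% of genes, and 2, Rhd and Slc4a1, were at least 2-fold lower, against 39.8% of genes.

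**Figure D1:**
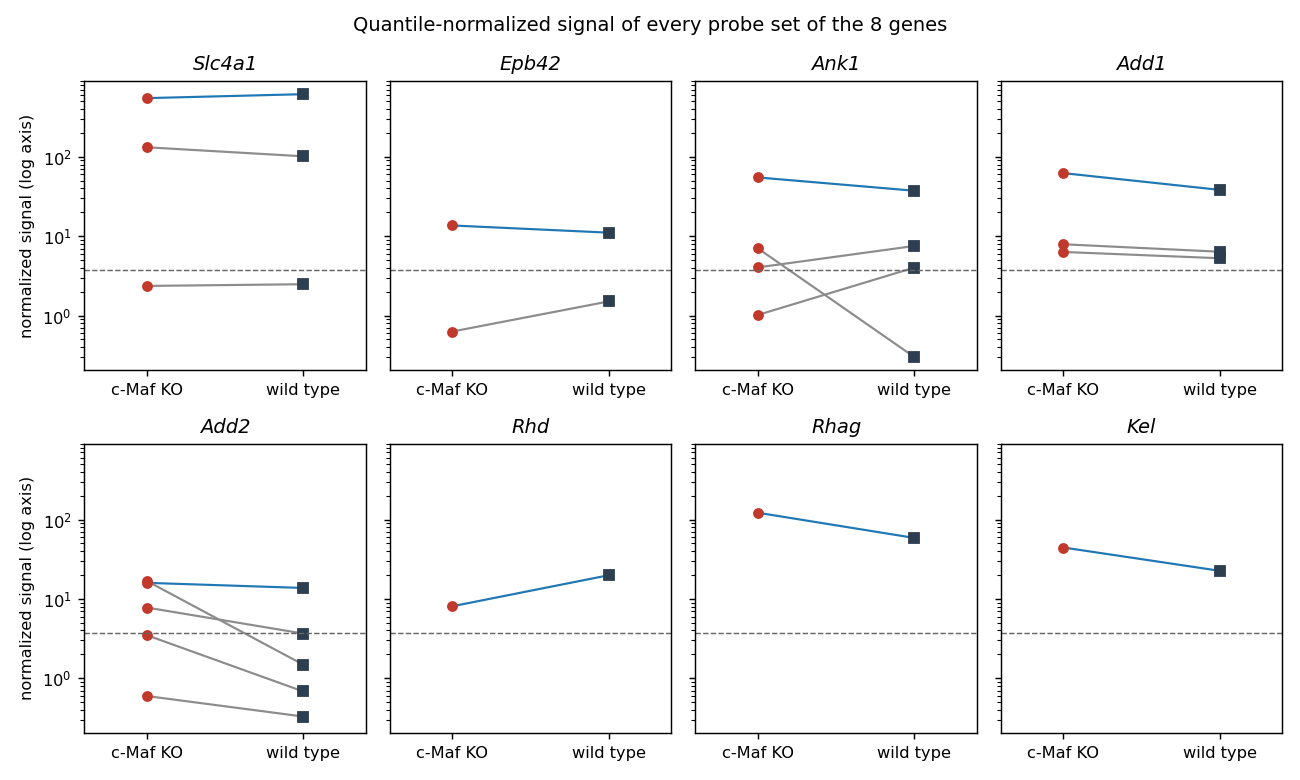
Quantile-normalized signal on a log axis for all 20 probe sets of the 8 genes, with the c-Maf KO array (circle) left of the wild type array (square); blue lines join the brightest probe set of each gene, grey lines the others, and the dashed line is the floor of 3.75. The single Rhd line climbs towards wild type while those of Rhag and Kel descend, and the probe sets of Ank1 cross one another.

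Rhd encodes the Rh protein that carries Rh blood group antigens, and Rhag encodes its glycoprotein partner, an ammonia channel without which Rh protein does not reach the surface in human red cells. Rhd had a deposited signal of 6.04 in c-Maf KO, against 29.0 in wild type, and normalized signals of 8.08 and 19.9. This was a 2.46-fold lower signal in c-Maf KO after normalization (log2 ratio -1.30) and 4.80-fold lower as deposited (-2.26). Rhd was lower under every setting tried, with log2 ratios from -2.50 to -0.999. However, its c-Maf KO signal was within a factor of 4 of the floor of 3.75. The ratio nearest 0 came with the floor added as a pseudocount. Rhd was read by 1 probe set only, so no further probe set of the gene bears on it. Its ratio was farther from 0 than the SD of 0.69 within genes, although that SD measures a spread around a gene mean and not a distance from 0. Among genes of like brightness, in the middle one of 5 equal signal bins, 12.5% were at least 2-fold lower, so a ratio of this size was not rare there.

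Rhag had a deposited signal of 81.2 in c-Maf KO, against 88.0 in wild type, and normalized signals of 122 and 58.6. The deposited signals were nearly level (log2 ratio -0.12), which on an array whose median gene had a ratio of -0.93 became a 2.08-fold higher signal after normalization (1.06). The direction for Rhag thus rested on the scaling: it was below 0 as deposited and when scaled to the hybridisation controls (-0.36). It was above 0 with equal medians (0.55) and with centred ratios (0.82). In the brightest of the 5 signal bins, which held Rhag, 5.30% of genes were at least 2-fold higher. What did not rest on a common scaling factor was the distance between the partners. The Rhd ratio lay 2.35 log2 units under that of Rhag after normalization and 2.15 units under it as deposited, and the second value is the same under any single scaling factor. Rhag, too, was read by 1 probe set, and a gap between 1 probe set each has no replicate check.

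Kel encodes the Kell blood group glycoprotein, a zinc endopeptidase of the endothelin-converting enzyme family. It followed Rhag more closely than Rhd, with deposited signals of 29.6 in c-Maf KO and 33.0 in wild type and normalized signals of 44.4 and 22.6. The normalized signal was 1.97-fold higher in c-Maf KO (log2 ratio 0.98, and -0.16 as deposited), just short of 2-fold. Kel too was read by 1 probe set. Over the settings its ratio ran from -0.40 to 1.07, so its direction was no firmer than that of Rhag.

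Slc4a1 encodes the anion exchanger of the red cell, the main anchor of the skeleton in the membrane. Its brightest probe set, whose _x suffix marks probes that may also match other transcripts, had a deposited signal of 395 in c-Maf KO, against 831 in wild type. After normalization it was at 549 in c-Maf KO and 615 in wild type, 1.12-fold lower (log2 ratio -0.17), whereas as deposited it was 2.10-fold lower (-1.07). A second probe set, without a suffix, had deposited signals of 88.1 in c-Maf KO and 153 in wild type, and its normalized ratio was 0.38, on the other side of 0. The remaining one was below the floor on both arrays. The 2 measured probe sets therefore lay 0.54 log2 units apart, on either side of 0, and gave Slc4a1 no settled direction after normalization. The SD of 0.69 within genes is a spread around a gene mean, so this gap is not set against it.

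Epb42 encodes a transglutaminase-like protein without enzyme activity that links the anion exchanger to ankyrin, and Ank1 encodes the erythroid ankyrin that binds spectrin. Epb42 had a deposited signal of 9.61 in c-Maf KO, against 15.47 in wild type, a normalized ratio of 0.30 (-0.69 as deposited), and its other probe set was below the floor on both arrays. Ank1, by its brightest probe set, had a deposited signal of 36.5 in c-Maf KO, against 55.9 in wild type, a normalized ratio of 0.56 (-0.61 as deposited). Both genes were thus within 2-fold by these probe sets. Of the other 3 Ank1 probe sets, 2 had ratios on the other side of 0 from the brightest one. One, 1425677_a_at, had normalized signals of 4.05 in c-Maf KO and 7.53 in wild type (-0.90). Another, 1443291_at, was below the floor in c-Maf KO and at 4.02 in wild type (at least 1.07-fold lower), and 1452512_a_at was at 7.03 in c-Maf KO and below the floor in wild type (at least 1.87-fold higher). The 4 Ank1 values spanned 1.80 log2 units, and 3 of them were within a factor of 4 of the floor. Ank1 has several transcripts, and which of them each probe set reads was not examined here.

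Add1 and Add2 encode the alpha and beta subunits of adducin, which work as a complex at the spectrin-actin junction. The 3 Add1 probe sets ran the same way. The brightest had a deposited signal of 41.6 in c-Maf KO, against 57.3 in wild type, and the normalized ratios were 0.70, 0.31 and 0.26. As deposited all 3 were below 0, between -0.49 and -0.46, which is less than the drop of the median gene. Add1 was the member with the closest agreement among 3 or more probe sets, with a range of 0.44 log2 units.

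Add2 was the member with the widest disagreement, with a range of 1.95 log2 units among 3 measured probe sets. The brightest, 1431076_at, had deposited signals of 11.1 in c-Maf KO and 19.5 in wild type and a normalized ratio of 0.21 (-0.82 as deposited). In contrast, 1450442_at had a deposited signal of 11.7 in c-Maf KO, against 2.02 in wild type, at least 4.48-fold higher in c-Maf KO after normalization and at least 3.16-fold higher as deposited. Another, 1435287_at, had deposited signals of 5.84 in c-Maf KO and 4.61 in wild type, at least 2.07-fold higher after normalization. The remaining 2 were below the floor on both arrays. The mean over the measured Add2 probe sets was 1.14, past 2-fold, against 0.21 for the brightest alone, so the reading for Add2 rested on the probe set taken. The 1450442_at and 1435287_at probe sets were the 2 member probe sets with a higher deposited signal in c-Maf KO that were past 2-fold after normalization.

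Counted by probe set, 16 of the 20 were measured on at least 1 array and 12 were above the floor on both. Of the 16, 3 were at least 2-fold higher in c-Maf KO (Rhag and 2 of Add2), against 8.71% of the 22608 named probe sets measured, and 1 was at least 2-fold lower (Rhd), against 8.82%. The 3 that were higher included 2 known by a bound. Of the 16, 12 had ratios above 0 and 4 below, with a median of 0.35. As deposited the 16 had a median of -0.49, with 13 below 0 and 3 above. On that scale 1 was at least 2-fold higher, against 1.27% of named probe sets, and 3 were at least 2-fold lower, against 36.6%.

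**Figure D2:**
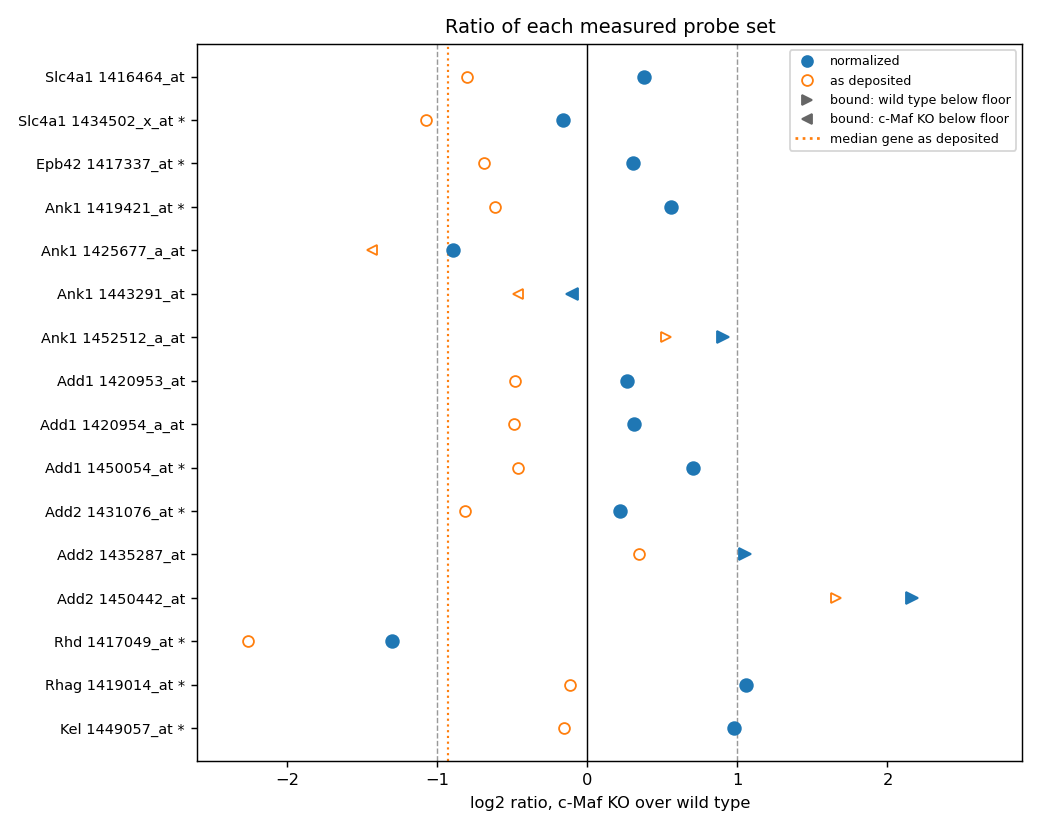
Log2 ratio of c-Maf KO over wild type for the 16 measured probe sets, after normalization (filled) and as deposited (open); triangles are bounds pointing away from the floored array, stars mark the brightest probe set of each gene, dashed lines mark 2-fold and the dotted line the median gene as deposited (-0.93). The open points of Rhd (-2.26), Ank1 1425677_a_at (-1.43) and the brightest Slc4a1 probe set (-1.07) lie left of the dotted line, and the other open points lie right of it.

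The order of the 8 ratios by brightest probe sets, from Rhd at the low end through Slc4a1, Add2, Epb42, Ank1, Add1 and Kel to Rhag, was the same after normalization as on the deposited scale. Scaling with a single factor cannot change this order, so it does not count again for equal medians, centred ratios or hybridisation controls. The order did change with the probe sets taken. By means over probe sets Add2 (1.14) lay above Rhag (1.06). With probe sets without a suffix Slc4a1 (0.38) lay above Epb42 (0.30). The other 7 genes ran from -0.17 to 1.06 after normalization and from -1.07 to -0.12 as deposited. As the lowest of the 8, Rhd lies outside both ranges by definition. The Rhd ratio was 1.86 log2 units below the median of the other 7 after normalization and 1.65 below it as deposited.

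**Figure D3:**
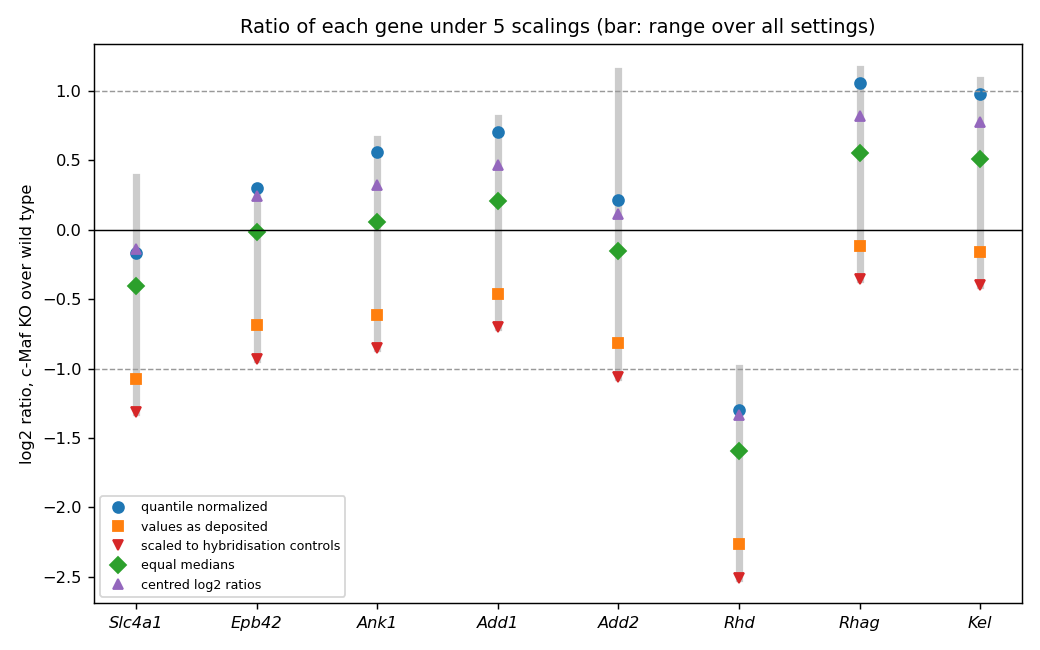
Log2 ratio of c-Maf KO over wild type for the brightest probe set of each of the 8 genes under 5 scalings of the arrays, with a grey bar for the range over all settings tried and dashed lines at 2-fold. Only Rhd has its whole range below 0, from -2.50 to -0.999.

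Most other genes of the red cell membrane were within 2-fold as well. Of 25 such genes 22 were on the array under their own name and 21 were measured, with 2 higher and 1 lower by 2-fold or more and 18 within 2-fold, and a median ratio of 0.28 (-0.66 as deposited). The higher genes were Tspo2, an erythroid paralog of the translocator protein (deposited signal 8.29 in c-Maf KO, against 1.38 in wild type, at least 3.10-fold), and Slc43a1, an amino acid transporter (7.66 in c-Maf KO, against 6.13 in wild type, 2.21-fold). The lower gene was Tpm3, a tropomyosin of many cell types, with 388 in c-Maf KO and 1386 in wild type (-1.01). Of its other measured probe sets, one lay at -0.86, in the same direction, and a dimmer one at 1.14, in the other direction. Sptb, the erythroid beta spectrin, was within 2-fold by its brightest probe set (0.66), although its other probe set was at -0.68 with c-Maf KO below the floor. Add3, the gamma adducin, was at -0.29 by its brightest probe set. Its other probe sets were at -0.92, -0.13 and 0.11, on both sides of 0. The shares of these other membrane genes past 2-fold, too, were near the 8.34% and 9.05% of all genes.

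Relatives of the 8 genes and of their skeletal partners that are known mainly outside red cells included genes past 2-fold in both directions. Of 19 such genes 17 were on the array under their own name and 14 were measured, 8 of them above the floor on both arrays. Of the 14, 5 were at least 2-fold higher and 3 at least 2-fold lower after normalization, against 8.34% and 9.05% of all genes. As deposited 0 were higher and 5 lower by as much, against 1.19% and 39.8% of genes. Sptan1, the non-erythroid alpha spectrin, was at 44.8 deposited in c-Maf KO and 33.5 in wild type (normalized ratio 1.55), and its other probe set was at 1.36. Tgm2, a transglutaminase related to Epb42, was at 1.49, Epb41l2 at 1.48 and Epb41l3 at 1.29, and Slc4a4, a bicarbonate cotransporter, was at least 2.25-fold higher. Tmod3, a tropomodulin that caps actin, was at -1.09 by its brightest probe set, but 2 others above the floor on both arrays were at -0.01 and 0.16. Epb41l1 was at least 2.23-fold lower by its brightest probe set and Ece1, a relative of Kel, at least 2.07-fold lower. One Epb41l2 probe set, at -1.65 with c-Maf KO below the floor, opposed the brightest.

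Markers of other cells were present on both arrays. Counts at 2-fold in each list are to be read against 8.34% higher and 9.05% lower over all genes after normalization, and 1.19% and 39.8% as deposited. Of 14 measured erythroid genes outside the membrane, 1 was at least 2-fold higher (Klf1, 1.53), 0 were at least 2-fold lower and 13 were within 2-fold, with a median of 0.25 (-0.89 as deposited). As deposited 0 were higher and 4 lower by as much. The adult globin gene Hba-a1 was below the floor on both arrays by the 1 probe set that names it alone. The summed normalized signal of the erythroid genes was 6455 in c-Maf KO and 8651 in wild type. Most of it came from the probe set named for the embryonic globin gene Hbb-y (5129 in c-Maf KO and 7646 in wild type), whose ratio was -0.58. That probe set has an _x suffix, which marks probes that may also match other transcripts. Hba-x, another embryonic globin gene, was at 0.24. The sort asked for macrophage surface proteins, yet red cell transcripts were read on both arrays, and the part of attached or engulfed erythroblasts in the 8 genes' values was not tested. All 7 hepatoblast markers were at least 2-fold higher in c-Maf KO, with a summed normalized signal of 847 in c-Maf KO, against 240 in wild type, and Afp at 1.51 and Alb at 2.27; as deposited 3 of the 7 were higher by as much. Of 8 granulocyte markers 0 were higher and 2 lower, with sums of 10438 in c-Maf KO and 12132 in wild type, and S100a8 and S100a9 at 0.00 and 0.07. The normalized ratio was below 0 for 5 of the 8 and above 0 for 2, with a median of -0.56 (-1.51 as deposited). As deposited 0 were higher and 6 lower. Of 5 megakaryocyte markers 0 were higher and 1 lower, Gp9, the only marker of these lists measured on 1 array alone, with sums of 139 in c-Maf KO and 114 in wild type. As deposited 0 were higher and 1 lower, with sums of 93.7 in c-Maf KO and 166 in wild type. Pf4 was at 0.20 and Itga2b at 0.95 after normalization. Of the 12 macrophage markers 4 were higher and 1 lower, with sums of 1082 in c-Maf KO and 1013 in wild type, and Csf1r at -0.24 and Lyz2 at 0.18. As deposited 0 were higher and 4 lower, with sums of 752 in c-Maf KO and 1471 in wild type, so both the counts and the sum turned with the scaling. The part of these differences in makeup in the ratios of the 8 genes was not tested.

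**Figure D4:**
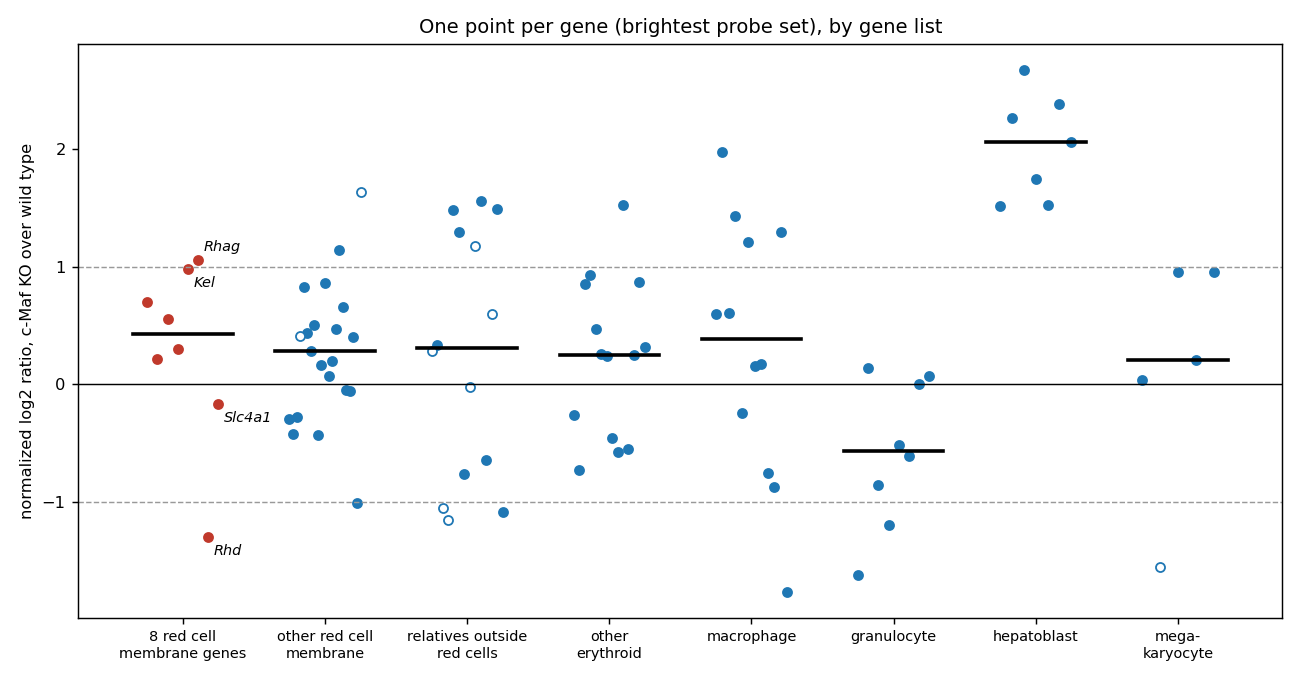
Normalized log2 ratio of c-Maf KO over wild type, 1 point per measured gene by its brightest probe set, for the 8 genes (red) and 7 other lists (blue); open points are bounds, black bars are list medians and dashed lines mark 2-fold. The 8 genes have a median of 0.43, against 0.39 for the macrophage markers, 0.31 for the relatives and 0.28 for the other red cell membrane genes. The median is 0.25 for the other erythroid genes, 0.20 for the megakaryocyte markers, -0.56 for the granulocyte markers and 2.06 for the hepatoblast genes.

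The arrays also differed in the ratio of signal near the 3′ end to signal near the 5′ end of control transcripts. It was 6.05 in c-Maf KO and 13.3 in wild type for Actb, and 0.90 in c-Maf KO and 1.83 in wild type for Gapdh. Where the probes of Rhd, Ank1 and Add2 lie along their transcripts was not examined here, and the part of this difference in their ratios was not tested.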

How the data were processed

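Biotin-labelled RNA was hybridised to Affymetrix GeneChip arrays, per the labels' protocols. The values deposited by the authors are a linear intensity per probe set, from 0.0203 to 10606; how it was summarised or scaled is not stated in the labels. Genes were named from the platform annotation. Of 45101 probe sets, 64 were controls, 34945 had 1 symbol, 932 several and 9160 none. By Entrez identifier, 34741 symbols were matched to the GRCm38.p6 gene table, whose symbol was then used.

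From the deposited intensity, log2 values were quantile normalized between the arrays, floored at the median, or 50th percentile, of the normalized values (3.75; 3.70 for deposited values), and subtracted, c-Maf KO minus wild type. A gene was measured if it reached the floor on at least 1 array, and its brightest probe set by mean deposited intensity stood for it. Calls were made at 2-fold. No test was possible with 1 array per genotype, and the number of arrays limits the precision. The calculation was tested on simulated data in which only bright probe sets were changed. The recovery of changes at low or floored signals was not tested. All members were named with every probe set. From the other membrane and relative lists, genes at least 2-fold changed were named (at most 8 per direction); Maf and the 2 brightest markers of each other list were named by rule, while Sptb, Add3, Klf1, Itgam, Gp9 and Hba-a1 were named after their values were seen. No gene was named for a like pattern, since over 2 arrays a pattern is only 1 ratio. The members and lists were chosen with earlier results of these data known. Promoter sequences are RefSeq's, and 6 of 8 members matched. Alternatives were 11 planned and 2 added after seeing the data. Python 3.11.15, numpy 2.4.6 and pandas 2.3.3 were used.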

Additional observations from a re-analysis of the deposited data

How the results depend on the processing

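The scaling between the arrays had the widest effect. Shares over all genes were taken only in the main setting (8.34% higher, 9.05% lower) and as deposited (1.19% higher, 39.8% lower). The counts under the other settings therefore have no background beside them and cannot be read against one. As deposited, 0 member genes were at least 2-fold higher and 2 lower, with a median log2 ratio of -0.65; 1 member probe set was higher and 3 lower; and 1 other red cell membrane gene was higher and 8 lower, with a median of -0.66. Scaled to the hybridisation controls, the counts were 0 and 3 member genes, 1 and 5 member probe sets, and 1 and 10 other membrane genes, with medians of -0.89 and -0.92. Rhag was at -0.12 as deposited and -0.36 with the controls, against 1.06 in the main setting. With equal medians 0 member genes, 1 member probe set and 1 other membrane gene were higher, and with centred ratios 0 member genes were higher and 0 other membrane genes lower.

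The floor at the 25th percentile gave 5 member probe sets higher and 2 lower, and 2 other membrane genes lower; at the 65th percentile 0 other membrane genes were higher. With the floor as a pseudocount 0 member genes and 0 member probe sets were lower, with Rhd just short of 2-fold. Means over probe sets gave 2 member genes higher (Rhag and Add2) and 0 other membrane genes lower, and probe sets without a suffix also gave 0 of them. At 1.5-fold, 3 member genes, 6 member probe sets and 5 other membrane genes were higher and 2 member probe sets lower. At 4-fold, 0 member genes were higher or lower, 1 member probe set was higher and 0 lower, and 0 other membrane genes were higher or lower. Of the alternatives chosen after seeing the data, quantile normalization of linear values gave 0 other membrane genes lower, and ratios centred within signal bins gave 2 member genes higher, 2 member probe sets lower and 0 other membrane genes lower. Beyond the settings' own construction, the cause was not tested. Signal near the floor limits most Ank1 and Add2 probe sets to bounds or small values. No paired analysis was possible because there was 1 array per genotype, which also allows no replicate to be left out.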
